A study of Homo sapiens with 6 samples.

Results

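Described here are 10 genes that respond to amino acid shortage and endoplasmic reticulum stress, centred on the transcription factor ATF4: ATF4, DDIT3, ATF3, ASNS, TRIB3, CHAC1, SESN2, PSAT1, PHGDH and DDIT4. They were chosen by name. All 10 were measured, out of 18417 genes on the array that the platform annotation names singly, and each is represented by its brightest probe set, judged by the mean signal of the 6 arrays. The study asked what silencing DKK2, a secreted modulator of Wnt signalling, does in Ewing sarcoma, a cancer mostly of bone in young people. RNA of 2 established Ewing sarcoma lines, A673 and SK-N-MC, was hybridised to 6 Affymetrix arrays. In each line 1 array was of cells given an siRNA against DKK2 (siDKK2), 1 of cells given an siRNA against the membrane protein gene ITM2A (siITM2A) as an independent knock-down, and 1 of cells given a non-silencing control siRNA. All cells grew in RPMI medium with 20% fetal bovine serum, 1% glutamine and 200 mg/dl glucose. By the labels, A673 received ITM2A siRNA number 7 and SK-N-MC number 1. They give neither the time after transfection nor repeat cultures, so the only replicates of an siRNA effect are the 2 lines. For ITM2A the lines do not repeat 1 siRNA, and line and siRNA number cannot be told apart.

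ATF4 is the effector of the integrated stress response. Kinases that sense missing amino acids, unfolded protein in the endoplasmic reticulum, double-stranded RNA or haem shortage phosphorylate the initiation factor eIF2, which slows protein synthesis in general but favours translation of the ATF4 message. ATF4 protein then pairs with C/EBP and other leucine zipper factors on C/EBP-ATF response elements and switches on genes for amino acid synthesis and uptake, tRNA charging and, when stress lasts, cell death. Because ATF4 is controlled largely at translation, its own RNA level is a poor measure of its activity, and its targets are usually read in its place.

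A match to that element within the 250 bases before a start site was found by letters in 3 of the 10 genes, and these windows are shown because ASNS and ATF3 passed between the lines and CHAC1 had the largest siDKK2 difference of the 10. DDIT4 and DDIT3, which had the largest line differences, have no match in these windows. RefSeq lists 16 starts for the 10 genes (GRCh38.p14). The sequences run 5′ to 3′ towards the start on the gene's own strand, and capitals mark the match to TGATGNAA on either strand.
ASNS, minus strand, chr7:97872409-97872658: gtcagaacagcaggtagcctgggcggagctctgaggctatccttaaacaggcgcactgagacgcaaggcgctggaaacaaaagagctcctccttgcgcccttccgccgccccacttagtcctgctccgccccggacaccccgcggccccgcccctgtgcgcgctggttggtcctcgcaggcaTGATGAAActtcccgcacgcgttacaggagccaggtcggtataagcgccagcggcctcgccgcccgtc
CHAC1, plus strand, chr15:40953221-40953470: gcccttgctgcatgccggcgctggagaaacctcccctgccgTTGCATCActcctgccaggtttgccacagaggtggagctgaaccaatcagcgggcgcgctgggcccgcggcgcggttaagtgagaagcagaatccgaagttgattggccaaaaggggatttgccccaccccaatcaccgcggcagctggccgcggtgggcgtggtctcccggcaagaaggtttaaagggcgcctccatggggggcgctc
ATF3, plus strand, the first of its 2 listed starts, chr1:212565157-212565406: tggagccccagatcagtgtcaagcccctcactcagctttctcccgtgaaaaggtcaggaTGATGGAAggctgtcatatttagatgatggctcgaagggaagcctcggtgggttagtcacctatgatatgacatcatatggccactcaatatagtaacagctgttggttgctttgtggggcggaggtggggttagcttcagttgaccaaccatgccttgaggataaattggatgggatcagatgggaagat
The ASNS match begins 68 bases before the start, the CHAC1 match, which reads on the opposite strand, begins 209 bases before it, and the ATF3 match begins 191 bases before it. In windows from 250 bases before to 50 after a start, TGATGNAA occurs in 3.62% of all 35116 listed starts and in 3 of the 16 starts of these genes. The ER stress element, CCAAT and CCACG with 9 free bases between them (0.0769% of all starts), and the cyclic AMP response element TGACGTCA (1.85%), searched on both strands, were in 0 of the 16. No matches overlapped, and a match in letters is a description and not a measured binding site.

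The values are log2 signals per probe set, and the medians of the arrays over all probe sets lay between 3.35 and 3.44. DKK2 was left at 53.0% of its control level by siDKK2 in A673 and at 35.1% in SK-N-MC, and ITM2A at 8.86% and 9.55% by siITM2A. In the test over all genes DKK2 itself did not pass with siDKK2 (fitted difference -1.21, limma, adjusted p = 0.209). ITM2A passed with siITM2A (-3.44, limma, adjusted p = 0.000442). Of 10 measured Ewing sarcoma markers, 9 were above the array's median gene on every array, CD99 and NKX2-2 among them and GLI1 being the exception. Of 11 markers of other cell types 2 or 3 were above it, KRT8 and KRT18 on every array and ACTA2 in A673 and on 2 of 3 SK-N-MC arrays, while the leukocyte gene PTPRC and the endothelial genes PECAM1 and VWF stayed at 1.90 to 2.73. ACTA2, a smooth muscle marker, was higher in A673 by 4.19 and differed by -0.84 (A673) and -0.62 (SK-N-MC) with siDKK2. The log2 sum of the other-type markers ran from 9.77 to 10.2 in A673 and from 9.43 to 9.92 in SK-N-MC, and the part of these markers in the results below was not tested.

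Levels are given first, by role, so that each difference can be read against them. ATF4 (probe set 8180337) stood at 8.70 with siDKK2, 9.05 with siITM2A and 8.80 with the control siRNA in A673, and at 8.45 with siDKK2, 8.71 with siITM2A and 8.59 with control in SK-N-MC. It was lowest with siDKK2 and highest with siITM2A in both lines, within a range of 0.35 (A673) and 0.25 (SK-N-MC). A second ATF4 probe set (8073148) did not share that order: it read 6.60 with siDKK2, 6.52 with siITM2A and 6.69 with control in A673, and 6.50 with siDKK2, 6.54 with siITM2A and 6.52 with control in SK-N-MC. DDIT3, which encodes the death-promoting factor CHOP, stood at 5.24 with siDKK2, 5.35 with siITM2A and 5.79 with control in A673, and at 4.24 with siDKK2, 4.42 with siITM2A and 4.18 with control in SK-N-MC. The 3 A673 arrays were all above the 3 SK-N-MC arrays. ATF3, a stress-induced leucine zipper factor that is a target of ATF4, was the only one of the 10 genes below the median gene level of 4.04. It stood at 2.87 with siDKK2, 3.50 with siITM2A and 3.42 with control in A673, and at 2.57 with siDKK2, 2.58 with siITM2A and 2.72 with control in SK-N-MC, so that A673 was higher without overlap. TRIB3, a pseudokinase that is induced by ATF4 and CHOP and restrains them, stood at 4.35 with siDKK2, 4.59 with siITM2A and 4.44 with control in A673, against 4.25 with siDKK2, 4.32 with siITM2A and 3.79 with control in SK-N-MC. The lines did not overlap, though the lowest A673 array and the highest SK-N-MC array of TRIB3 nearly met.

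Among the enzymes, ASNS, which makes asparagine, stood at 5.74 with siDKK2, 6.22 with siITM2A and 6.17 with control in A673, and at 4.81 with siDKK2, 5.20 with siITM2A and 4.83 with control in SK-N-MC. Every A673 array was above every SK-N-MC array. PHGDH, the first enzyme of serine synthesis, stood at 8.94 with siDKK2, 9.17 with siITM2A and 8.52 with control in A673, and at 8.89 with siDKK2, 8.73 with siITM2A and 8.68 with control in SK-N-MC. The control array was its lowest in each line. PSAT1, the next enzyme of that pathway, stood at 7.23 with siDKK2, 7.65 with siITM2A and 7.25 with control in A673, and at 7.47 with siDKK2, 7.45 with siITM2A and 7.29 with control in SK-N-MC, and the lines overlapped. CHAC1, which degrades glutathione, stood at 3.73 with siDKK2, 4.56 with siITM2A and 4.52 with control in A673, and at 3.61 with siDKK2, 4.17 with siITM2A and 4.10 with control in SK-N-MC. Its siDKK2 array was clearly the lowest of the 3 in each line, and the other arrays of a line lay within 0.07.

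SESN2 and DDIT4 encode stress-induced restrainers of the growth kinase complex mTORC1, SESN2 being also a leucine sensor. SESN2 stood at 3.96 with siDKK2, 4.27 with siITM2A and 4.15 with control in A673, and at 4.56 with siDKK2, 4.23 with siITM2A and 3.88 with control in SK-N-MC. Its siDKK2 array was the lowest in A673 and the highest in SK-N-MC. DDIT4 stood at 5.20 with siDKK2, 5.48 with siITM2A and 4.77 with control in A673, and at 6.91 with siDKK2, 7.26 with siITM2A and 6.66 with control in SK-N-MC. In each line it was highest with siITM2A and lowest with control, and every A673 array was below every SK-N-MC array.

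**Figure D1:**
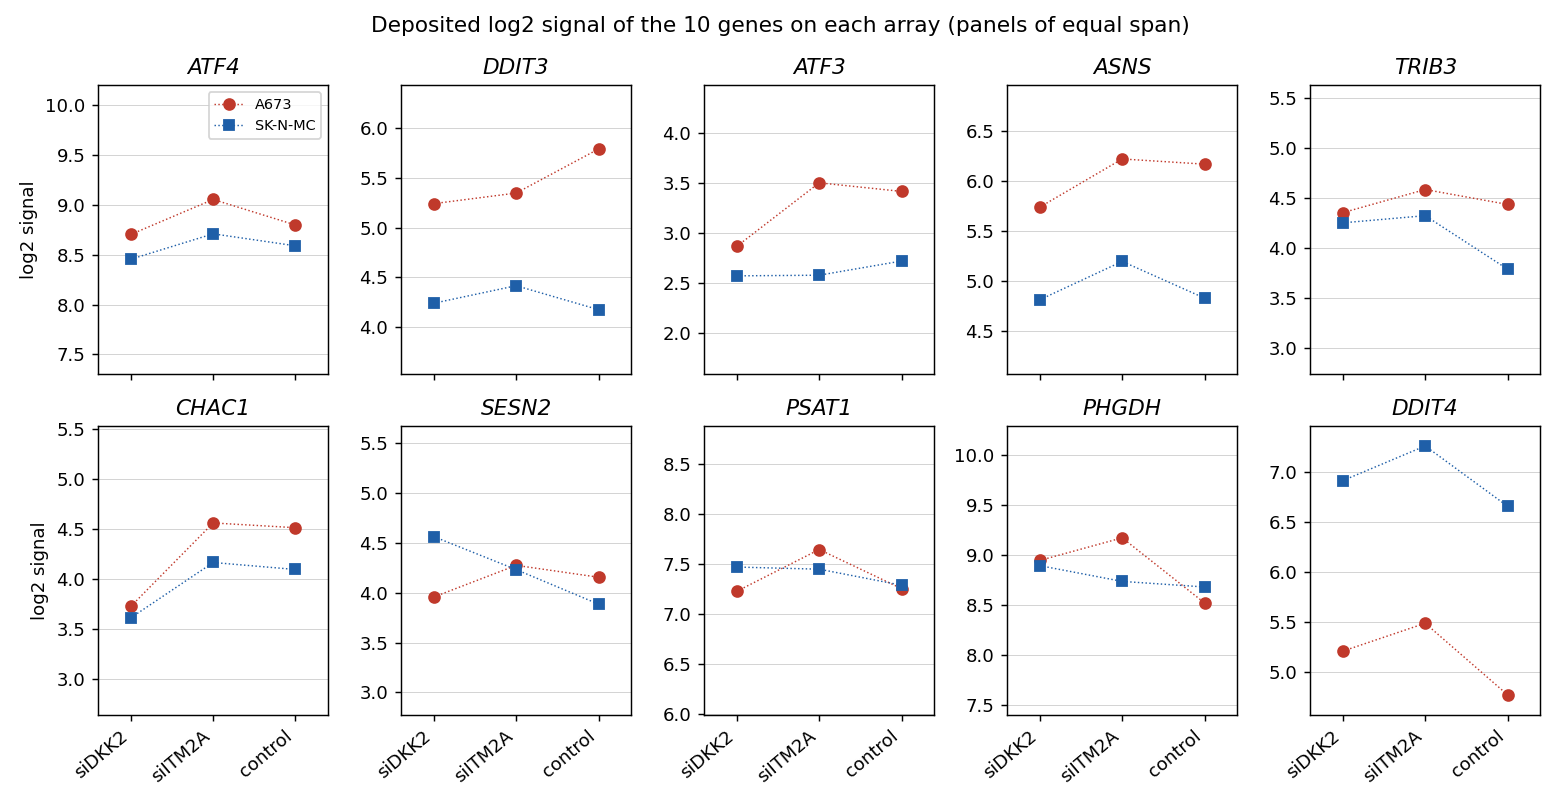
Log2 signal of each of the 10 genes (vertical axis, panels of equal span) on the siDKK2, siITM2A and control arrays (horizontal axis), 1 array per point, with A673 as red circles and SK-N-MC as blue squares; dotted lines join the arrays of a line and show no time course. CHAC1 is lowest with siDKK2 in both lines, and DDIT4 is lower in A673 on every array.

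With siDKK2, against the control siRNA, CHAC1 had the largest difference of the 10 genes and did not pass the test over all genes. Its level was lower by 1.73-fold (A673) and 1.40-fold (SK-N-MC), a fitted difference of -0.64 ± 0.14 on the log2 scale (SE, n = 2 lines; limma, adjusted p = 0.297). In such bulk RNA, fewer cells with a message and less of it per cell cannot be told apart. DDIT4 was 1.35-fold and 1.195-fold higher, a fitted difference of 0.35 ± 0.13 (adjusted p = 0.512), and PHGDH 1.34-fold and 1.16-fold higher (0.32 ± 0.16). ATF3 and DDIT3 had their larger values in A673, ATF3 differing by -0.55 (A673) and -0.15 (SK-N-MC), and DDIT3 by -0.55 (A673) and 0.065 (SK-N-MC). ASNS differed by -0.43 (A673) and -0.02 (SK-N-MC), and ATF4 itself by -0.09 and -0.13. SESN2 (-0.20 and 0.68, A673 first), TRIB3 (-0.08 and 0.46) and PSAT1 (-0.03 and 0.18) had opposite signs in the lines.

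Of the 10 genes 0 passed with siDKK2, where 0.0109% of all genes did (limma, adjusted p under 0.05), and 2, CHAC1 and DDIT4, had an unadjusted p under 0.05, beside 8.68% of all genes. Lower in both lines were 4 of the 10, ATF4, ATF3, ASNS and CHAC1, beside 31.6% of all genes, and higher in both were PHGDH and DDIT4, beside 23.2%. No gene of the 10 was past 1.5-fold in both lines (0.418% of all genes lower and 0.0597% higher), and CHAC1 alone was lower by 0.32 or more on the log2 scale in both, beside 2.54% of all genes. The median difference of the 10 was -0.018 and that of all genes -0.025. The 95% intervals of the fit, not corrected for the number of genes, reach a drop of 1.94-fold for CHAC1, 1.66-fold for ATF3 and 1.58-fold for DDIT3. In simulated data of this comparison the fit recovered 3% of genes changed by 0.5 and 81% of those changed by 1 on the log2 scale.

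With siITM2A, against the same control arrays, DDIT4 had the largest difference. Its level was higher by 1.64-fold (A673) and 1.52-fold (SK-N-MC), a fitted difference of 0.66 ± 0.13 (limma, adjusted p = 0.623), and was the only one of the 10 genes past 1.5-fold in both lines, where 0.0869% of all genes were that much higher and 0.168% that much lower. None of the 10, and 0% of all genes, was 2-fold higher in both lines. PHGDH differed by 0.65 (A673) and 0.06 (SK-N-MC), and PSAT1 by 0.39 and 0.16. TRIB3 differed by 0.15 (A673) and 0.54 (SK-N-MC), ASNS by 0.05 and 0.37, SESN2 by 0.12 and 0.35, and ATF4 by 0.26 and 0.12. For PHGDH and PSAT1 the larger value was thus in A673, and for TRIB3, ASNS and SESN2 it was in SK-N-MC. The lines received different ITM2A siRNAs, so line and siRNA cannot be told apart here. CHAC1, the gene with the largest siDKK2 difference, differed by 0.05 and 0.07 with siITM2A. DDIT3 (-0.44 and 0.24, A673 first) and ATF3 (0.09 and -0.14) had opposite signs.

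Of the 10 genes 0 passed with siITM2A, where 0.0109% of all genes did, and DDIT4 alone had an unadjusted p under 0.05, beside 6.91% of all genes. Higher in both lines were 8 of the 10, all but DDIT3 and ATF3, beside 21.2% of all genes, and 0 were lower in both, beside 30.7%. The median difference was 0.22, beside -0.03 over all genes. Each single gene stayed short of the threshold, and the siDKK2 and siITM2A differences share their control arrays, so they are not separate evidence.

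**Figure D2:**
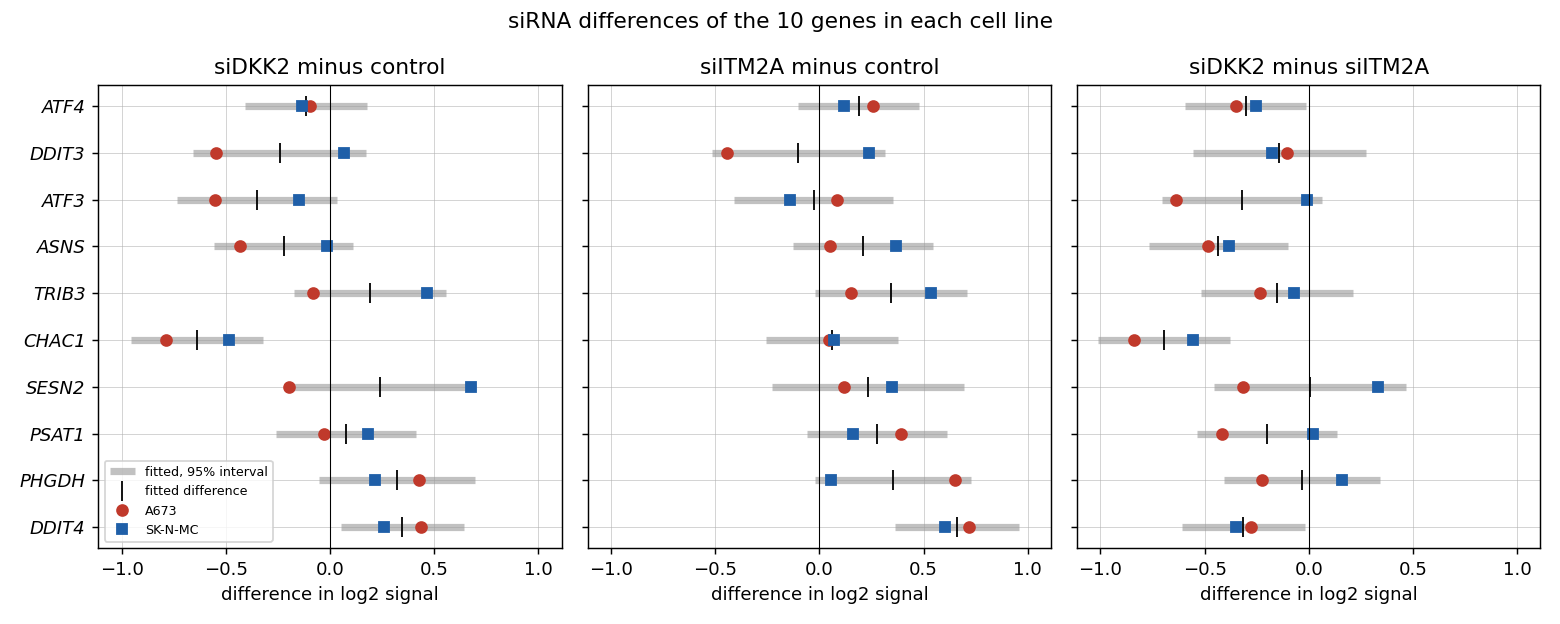
Difference in log2 signal (horizontal axis) of each gene for siDKK2 minus control, siITM2A minus control and siDKK2 minus siITM2A; red circles are A673, blue squares SK-N-MC, black ticks the fitted difference and grey bars its 95% interval. CHAC1 is negative in both lines with siDKK2 in both comparisons that hold it, and DDIT4 lies at 0.72 and 0.60 with siITM2A.

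Set directly against siITM2A, siDKK2 gave lower values for most of the 10 genes, and none passed the test. CHAC1 was lower by 1.79-fold (A673) and 1.47-fold (SK-N-MC) (-0.70 ± 0.14, adjusted p = 0.283), and ASNS 1.40-fold and 1.30-fold lower (-0.43 ± 0.15, adjusted p = 0.519). DDIT4 differed by -0.28 (A673) and -0.35 (SK-N-MC), and ATF4 by -0.35 and -0.25, a value that its second probe set did not share (0.07 and -0.05). ATF3 differed by -0.64 (A673) and by -0.01 (SK-N-MC). Lower in both lines were 7 of the 10, all but SESN2, PSAT1 and PHGDH, beside 27.5% of all genes, and 0 were higher in both, beside 27.4%. Of the 10 genes 0 passed, where 0.0163% of all genes did, and ATF4, ASNS, CHAC1 and DDIT4 had an unadjusted p under 0.05, beside 8.32% of all genes. Only CHAC1 and ASNS were lower by 0.32 or more on the log2 scale in each line, beside 1.99% of all genes, and none was past 1.5-fold in both, where 0.353% of all genes were lower and 0.136% higher. The median difference was -0.25 over the 10 genes, -0.33 (A673) and -0.12 (SK-N-MC), and 0.00 over all genes.

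Between the lines the differences were larger, and 4 of the 10 genes passed. DDIT4 was lower in A673 by 3.46-fold, averaging 5.15 ± 0.36 in A673, against 6.94 ± 0.30 in SK-N-MC (SD, n = 3 arrays each), a fitted difference of -1.79 ± 0.11 (SE; limma, adjusted p = 7.09e-06). DDIT3 was higher in A673 by 2.26-fold, at 5.46 ± 0.29 against 4.28 ± 0.12 in SK-N-MC (fitted 1.18 ± 0.15, adjusted p = 0.000442). ASNS was higher by 2.14-fold, at 6.05 ± 0.26 against 4.95 ± 0.22 in SK-N-MC (1.10 ± 0.12, adjusted p = 0.000208). ATF3 was higher by 1.56-fold, at 3.26 ± 0.35 against 2.62 ± 0.08 in SK-N-MC (0.64 ± 0.14, adjusted p = 0.00766). The CHOP gene, the asparagine synthetase gene and ATF3 were thus higher in A673, and the mTORC1 restrainer gene DDIT4 higher in SK-N-MC. ATF3 was dim: its SK-N-MC values, 2.57 to 2.72, lay within the 1.90 to 2.73 of PTPRC, PECAM1 and VWF. In A673 with siDKK2 it read 2.87, so the size of its line difference is uncertain. The ATF3 call was lost without either siITM2A array (0.50, adjusted p = 0.0741; its alternatives ran from 0.00351 to 0.0741).

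The other 6 genes did not pass between the lines. CHAC1 differed by 0.31 ± 0.11 (adjusted p = 0.0766), TRIB3 by 0.34 ± 0.13 (adjusted p = 0.0915) and ATF4 by 0.27 ± 0.10 (adjusted p = 0.0956), each higher in A673 with all 3 siRNAs. ATF4 passed with an intensity trend in the moderation (adjusted p = 0.0385; its alternatives ran from 0.0385 to 0.308) and stood at 0.18 as the mean of its probe sets. PHGDH (0.11 ± 0.13), PSAT1 (-0.03 ± 0.12) and SESN2 (-0.10 ± 0.16) changed sign between siRNAs. Their 95% intervals leave room for a 1.33-fold higher PHGDH, a 1.23-fold lower PSAT1 and a 1.39-fold lower SESN2 in A673.

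The share of called genes, 4 of 10, stands beside 28.5% of all genes called between these lines, and the 5 genes whose lines did not overlap, DDIT3, ATF3, ASNS, TRIB3 and DDIT4, stand beside 38.9%. Calls were more frequent among brighter genes: the fit of the 9209 genes at or above the median level called 4472. That fit held 9 of the 10 genes and called DDIT4, DDIT3 and ASNS of them, so 4 of 10 is not a raised share. By direction, 3 of the 10 rose in A673, beside 13.8% of all genes, and 1 fell, beside 14.7%. Higher with all 3 siRNAs were 6, beside 24.6%, and lower 1, beside 29.4%. ATF4 is among the 6 by probe set 8180337 and not by its second probe set. DDIT3 and ASNS were at least 1.5-fold higher with all 3 siRNAs, beside 6.54%, and DDIT4 that much lower, beside 5.33%. At an unadjusted p under 0.05 were 7, beside 37% of all genes. The median difference was 0.29, beside -0.02 over all genes. The size of some differences varied with the siRNA: DDIT3 was 1.61 higher in A673 with the control siRNA, 1.00 with siDKK2 and 0.93 with siITM2A, and SESN2 was lower in A673 by 0.61 with siDKK2 but 0.27 higher with control. That variation was not tested, with 1 array per line and siRNA. The lines also differ in everything else that sets 2 tumours apart, and 3 arrays of 1 line do not replicate the line.

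**Figure D3:**
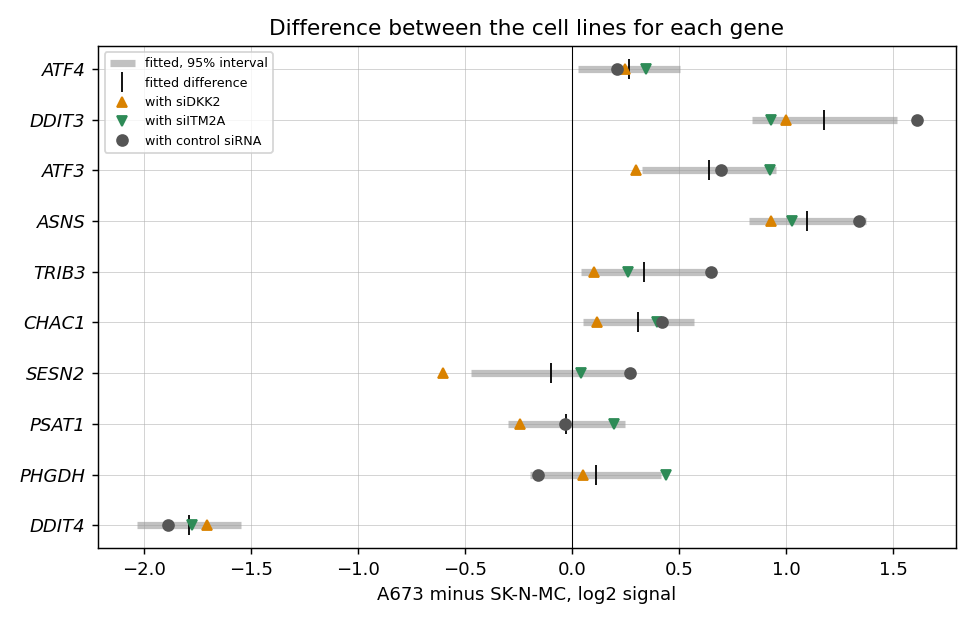
A673 minus SK-N-MC in log2 signal (horizontal axis) for each gene; orange upward triangles are siDKK2 arrays, green downward triangles siITM2A, grey circles control, black ticks the fitted difference and grey bars its 95% interval. DDIT4 lies between -1.89 and -1.71 and DDIT3 between 0.93 and 1.61, while SESN2 and PSAT1 fall on both sides of 0.

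The wider response was read in lists of other genes. In each siRNA comparison 0 of 60 measured genes of tRNA charging, amino acid transport, serine, proline and one-carbon synthesis and other ATF4-induced functions passed, with medians of -0.04 with siDKK2, 0.04 with siITM2A and -0.10 for siDKK2 against siITM2A, beside -0.025, -0.03 and 0.00 over all genes. Among 18 other ATF4-induced stress genes, 6 were lower in both lines with siDKK2, beside 31.6% of all genes, and 6 higher, beside 23.2%. With siITM2A 11 were higher in both lines, beside 21.2% of all genes, and for siDKK2 against siITM2A 12 were lower, beside 27.5%. EIF4EBP1, which encodes a repressor of cap-dependent translation, differed by 0.85 (A673) and 0.46 (SK-N-MC) with siDKK2 and by 0.72 and 0.33 with siITM2A. GADD45A, a growth arrest gene, differed by -0.50 and -0.53 with siDKK2, and the autophagy receptor gene SQSTM1 by 0.46 and 0.28 with siITM2A and by -0.58 and -0.58 for siDKK2 against siITM2A. ATF5, a relative of ATF4, differed by -0.44 and -0.26 with siDKK2.

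The genes of amino acid supply gave values that did not pass. The cystine carrier gene SLC7A11 differed by 0.34 (A673) and 0.38 (SK-N-MC) with siITM2A and by -0.66 and -0.35 for siDKK2 against siITM2A. SLC7A1, a carrier of cationic amino acids, differed by -0.43 and -0.37 with siDKK2 and by -0.31 and -0.31 with siITM2A, and the glycine carrier gene SLC6A9 by 0.30 and 0.37 with siDKK2 and 0.33 and 0.55 with siITM2A. PSPH, the last enzyme of serine synthesis, differed by 0.38 and 0.52 with siITM2A, the same direction as PHGDH and PSAT1. ALDH18A1, of the same enzyme list, went the other way with siITM2A (-0.15 in A673 and -0.33 in SK-N-MC). It differed by 0.32 and 0.25 with siDKK2 and by 0.47 and 0.58 for siDKK2 against siITM2A. BCAT1 differed by -0.23 and -0.39 with siDKK2 and by -0.36 and -0.41 for siDKK2 against siITM2A. The threonyl-tRNA synthetase gene TARS1 differed by -0.30 and -0.33 with siDKK2, AARS1 by -0.31 and -0.25 and HARS1 by 0.28 and 0.27.

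Of the 4 kinases that phosphorylate eIF2, 1 stood out by size. EIF2AK2, the kinase PKR that senses double-stranded RNA and is itself induced by interferon, stood at 7.58 with siDKK2, 9.25 with siITM2A and 9.58 with control in A673, and at 6.83 with siDKK2, 7.64 with siITM2A and 7.83 with control in SK-N-MC. With siDKK2 it differed by -2.00 (A673) and -1.004 (SK-N-MC), short of the threshold (-1.50 ± 0.23, adjusted p = 0.209), and its part in the CHAC1 value was not tested. EIF2AK1 (0.26 ± 0.14), EIF2AK3, the endoplasmic reticulum kinase PERK (-0.20 ± 0.15), and EIF2AK4, the amino acid sensor GCN2 (-0.19 ± 0.13), did not pass either. For the ATF6 and XBP1 branch of the unfolded protein response, which supplies chaperones, 0 of 20 genes passed in any siRNA comparison, and the medians were -0.08 with siDKK2 and -0.05 with siITM2A. PDIA6 differed by -0.27 and -0.36 with siDKK2 and HSP90B1 by -0.25 and -0.22. EDEM1, which acts in the disposal of misfolded glycoproteins, differed by 0.53 and 0.24 with siITM2A, and the lectin chaperone gene CALR by -0.27 and -0.45.

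Between the lines the chaperone branch was higher in A673. Of its 20 genes 12 rose and 0 fell in A673 relative to SK-N-MC, beside 13.8% of all genes higher and 14.7% lower, and the median difference was 0.60. The branch is bright, with a median level of 7.06 beside 4.04 over all genes. In the fit of the 9209 genes at or above the median level, 4472 were called in either direction. ACTA2 aside, no marker of another cell type passed between the lines. HYOU1, a chaperone of the endoplasmic reticulum, was higher by 2.41 ± 0.13 (limma, adjusted p = 3.52e-06), HERPUD1, which acts in protein disposal there, by 1.95 ± 0.12 and HSPA5, the master chaperone BiP, by 1.40 ± 0.13. DNAJC3 (1.30 ± 0.17), PDIA4 (1.22 ± 0.11) and HSP90B1 (1.03 ± 0.11) followed. HSPA5 stood at 10.34 with siDKK2, 10.75 with siITM2A and 10.55 with control in A673, against 9.13 with siDKK2, 9.02 with siITM2A and 9.31 with control in SK-N-MC.

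Between the lines, each list of amino acid supply, other ATF4-induced and eIF2 control genes held at least 1 called gene in each direction. Most called transporter and tRNA synthetase genes were higher in A673. The counts of these lists stand beside 13.8% of all genes called higher in A673 and 14.7% called lower. Those shares take in many dim genes, while the median level was 8.39 for the synthetases and 6.70 for the transporters, beside 4.04 over all genes. In the fit of the 9209 genes at or above the median level, 4472 were called in either direction. The number of calls in these 2 lists is therefore not read as raised. The shares of the 18 other ATF4-induced genes and the 13 of eIF2 control lie nearer to these than those of the transporters and synthetases. Of 12 transporter genes 6 were higher in A673 and 1 lower past the threshold, led by SLC7A5, the light chain of the large neutral amino acid carrier (2.43 ± 0.12, adjusted p = 3.29e-06), SLC7A11 (1.28 ± 0.12), its and SLC7A5's shared heavy chain gene SLC3A2 (0.85 ± 0.13) and SLC38A1 (0.73 ± 0.11). Of 19 tRNA synthetase genes 8 were higher and 1 lower, with AARS1 at 1.78 ± 0.10, WARS1 at 1.12 ± 0.17, CARS1 at 1.10 ± 0.12 and QARS1 at -1.13 ± 0.11. Of 11 enzymes of serine, proline and one-carbon synthesis and related steps 3 were higher and 3 lower. ASS1, which makes argininosuccinate on the way to arginine, was lower in A673 by 2.63 on the log2 scale (-2.63 ± 0.16, adjusted p = 8.45e-06), at 5.09 with siDKK2, 4.77 with siITM2A and 4.70 with control in A673 and 7.56 with siDKK2, 7.89 with siITM2A and 7.0005 with control in SK-N-MC. Of the 18 other ATF4-induced genes 5 were higher and 2 lower, with the cell cycle inhibitor gene CDKN1A at 1.75 ± 0.12 and GADD45A at 1.47 ± 0.12 among the higher and KLHL24 at -1.65 ± 0.16 among the lower. Of 13 genes of eIF2 control 4 were higher, PPP1R15A, the stress-induced eIF2 phosphatase subunit (0.97 ± 0.13), and EIF2AK2 (1.37 ± 0.18) among them, and 1 was lower.

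Of 16 measured mTORC1 pathway genes 0 were higher in A673 and 7 lower past the threshold, beside 13.8% of all genes higher and 14.7% lower, and the median was -0.32. Genes that drive the complex and genes that restrain it are both in this list, so the count gives no direction of mTORC1 activity. Its median level was 5.35, beside 4.04 over all genes. The other 9 did not pass, among them CASTOR1 (0.39) and RHEB (0.14), chosen after their values were seen, which lay above 0. The sestrin genes SESN3 (-2.41 ± 0.26) and SESN1 (-1.60 ± 0.14), relatives of SESN2, had the largest differences. SESN3 was dim in A673, at 2.29 with siDKK2, 2.01 with siITM2A and 2.16 with control, below the median gene level of 4.04. Its line difference was -1.47 with siDKK2, -2.69 with siITM2A and -3.08 with control. MLST8 (-0.91 ± 0.13), a subunit of the complex, NPRL2 (-0.75 ± 0.10), RPS6KB1 (-0.73 ± 0.10), the S6 kinase gene, and DEPDC5 (-0.47 ± 0.10) also fell in A673 relative to SK-N-MC. TSC2 (-0.44 ± 0.11, limma, adjusted p = 0.0188) completes the 7 called genes.

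**Figure D4:**
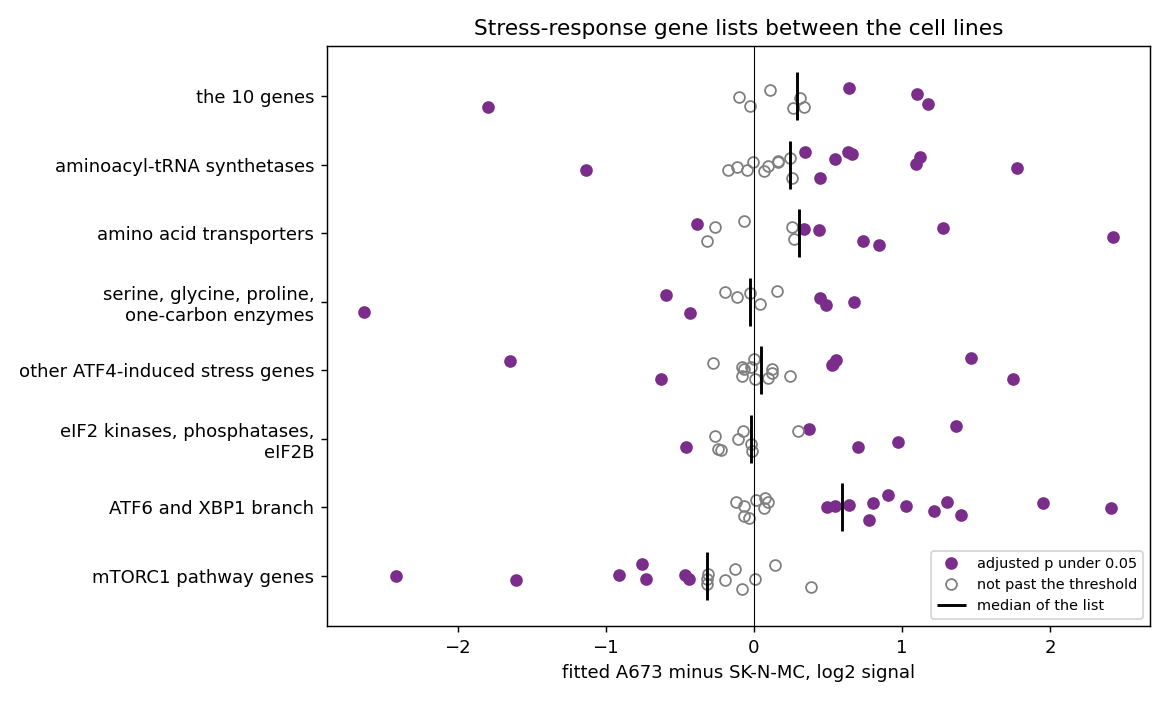
Fitted A673 minus SK-N-MC difference in log2 signal (horizontal axis) for every measured gene of each list (rows); filled purple points passed the threshold over all genes, open grey points did not, and black bars mark list medians. The ATF6 and XBP1 branch has 12 filled points, all above 0, and the mTORC1 pathway, a list of drivers and restrainers alike, has 7, all below 0. Vertical scatter within a row has no meaning.

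How the 10 genes varied together across siRNAs was described after each line's own mean had been subtracted. Of 45 pairs 37 had a correlation above 0 over the 6 arrays, with a median r of 0.35. The points share arrays and normalization, and few free values remain once the line means are subtracted. The share of positive pairs over all genes was not computed, so the 37 cannot be read as a trait of these 10 genes. CHAC1 went most closely with ATF3 (r = 0.87), ASNS (0.86) and ATF4 (0.80), while DDIT3 and PHGDH ran oppositely (-0.75). These pairs were picked from the ends of the range of r. Over 9209 genes at or above the median level, the 3 whose line-centred values were most like those of ATF4 were ESCO1 (r = 0.997), POT1 (0.997) and ATP6V0A2 (0.995). An r above 0.95 with ATF4 was found for 67 of the 9209 genes. All ATF4 correlations rest on probe set 8180337. The second ATF4 probe set, which did not share its order over the siRNAs, was not used in them.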

How the data were processed

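Per the labels' protocols, 200 ng of total RNA per sample was amplified and biotin-labelled for whole-transcript arrays. Expression Console (Affymetrix) and RMA are listed in the submitters' processing notes; their versions, settings and build: not given in the sources used here. The deposited values are taken as log2 signals, 1 per probe set, because of the range they span. RMA equalises the arrays' distributions and shrinks differences at low signal. No scanner files were used, so signal over background is unknown, and the number of arrays limits the precision.

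Of 33297 probe sets 19460 had 1 gene symbol, 1754 had several and 12083 had no gene symbol from the platform annotation, and the 0 columns without a sample left 6 arrays. Keeping the probe set with the highest mean per gene gave 18417 genes. PHGDH has a further probe set that it shares with MZT2B, which was not used in the tests. Of 145 listed genes 5 were not analysed here.

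With limma 3.58.1 in R 4.3.3, lmFit and eBayes took siRNA and cell line as terms over the 6 arrays, which left 2 residual degrees of freedom, moderated to 8.28. Arrays are paired across siRNAs by their labelled cell line. Arrays of 1 line correlated at 0.986 to 0.991 over probe sets, against 0.959 to 0.965 between lines. Benjamini-Hochberg adjustment ran over all genes, at a threshold of 0.05, in 4 comparisons, and the p-values measure only the spread between these samples, which may be technical. Tested on simulated data of the siDKK2 and control comparison (10 runs, 200 changed genes among 18417), the fit gave calls of which 4.76% were false. Promoter sequences are from RefSeq (GRCh38.p14), matched by symbol for all 10 genes. Beside the 10 genes, DKK2, ITM2A and the eIF2 kinases, the genes named are, per list and comparison, those past the threshold (at most 6, by the smallest of the paired differences) or, where under 3 passed, up to 3 with the largest such difference, given as values; the 3 genes most like ATF4 are also named. The 10 genes, the lists and the tests were chosen with earlier results of these data known. Alternatives were a filter on dim genes, an intensity trend, quantile normalization, median centring, the mean of a gene's probe sets, no pairing term (the line, or the siRNA in the comparison of lines), the compared arrays alone and leaving out each array.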

Additional observations from a re-analysis of the deposited data

Results flagged for a closer look

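Some of the 10 genes moved in opposite directions in A673 and SK-N-MC, 4 with siDKK2 and 2 with siITM2A. The difference between lines was not tested, because 1 array stands for each line and siRNA. With siITM2A the lines also received different siRNAs by number. Such opposite signs occurred in 45% of all genes with siDKK2 and in 47.9% with siITM2A. For siDKK2 minus control, SESN2 gave -0.20 (A673) and 0.68 (SK-N-MC), TRIB3 -0.082 (A673) and 0.46 (SK-N-MC), DDIT3 -0.55 (A673) and 0.065 (SK-N-MC), and PSAT1 -0.027 (A673) and 0.18 (SK-N-MC). For siITM2A minus control, DDIT3 gave -0.44 (A673) and 0.24 (SK-N-MC), and ATF3 0.086 (A673) and -0.14 (SK-N-MC).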

How the results depend on the processing

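The number of the 10 genes past the threshold was 0 in each siRNA comparison under every alternative run. Without the line as a replicate block it was again 0, 0 and 0, and between the lines, where the block left out was the siRNA, it was 4. Over all genes the fit without the line called 0 with siDKK2, 0 with siITM2A and 0 between these siRNAs, against 2, 2 and 3 with the block. The intensity trend called 7 and 16 genes with siDKK2 against control and against siITM2A, the filter on dim genes 6 in the second, the compared arrays alone 0 and 18, and leaving out an array gave 0 to 60, 0 to 4 and 1 to 50. At a log2 difference of 0.32 in both lines the count lower was 1 with siDKK2 against control and 2 against siITM2A, where 1.5-fold gave 0, and at 2-fold in both the count higher with siITM2A was 0, where 1.5-fold gave 1. ATF3 was not tested under the filter. ATF4 passed between the lines with the intensity trend alone.

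Of 240 values with an array left out, 24 changed sign, and none of 266 under the other alternatives did. Leaving out single arrays put siDKK2 minus control between -0.56 and 0.082 for DDIT3, -0.042 and 0.42 for TRIB3, -0.14 and 0.62 for SESN2 and -0.085 and 0.24 for PSAT1. It put siITM2A minus control between -0.42 and 0.22 for DDIT3, -0.24 and 0.19 for ATF3, -0.023 and 0.14 for CHAC1 and -0.043 and 0.51 for SESN2. It put siDKK2 minus siITM2A between -0.33 and 0.047 for DDIT3, -0.33 and 0.025 for TRIB3, -0.37 and 0.39 for SESN2 and -0.28 and 0.21 for PHGDH, and A673 minus SK-N-MC between -0.28 and 0.16 for SESN2, -0.14 and 0.082 for PSAT1 and -0.054 and 0.24 for PHGDH. A further 11 of the 40 fitted values kept their sign but moved by over 1.5 times, none of them a called value, among them PHGDH with siDKK2 (0.12 to 0.52) and with siITM2A (0.11 to 0.60), ASNS (-0.41 to -0.041) and ATF3 (-0.61 to -0.092) with siDKK2, and TRIB3 with siITM2A (0.11 to 0.58). The cause was not tested, but these fits have fewer arrays, and the siRNA that loses an array is left with 1 line. Between the lines ATF3 did not pass without either siITM2A array.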

Other observations

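The probe set that PHGDH shares with MZT2B stood at 8.24 with siDKK2, 7.95 with siITM2A and 7.34 with control in A673, and at 8.31 with siDKK2, 8.22 with siITM2A and 8.12 with control in SK-N-MC. Its siDKK2 difference from control was 0.90 (A673) and 0.19 (SK-N-MC), against 0.43 and 0.21 for the PHGDH probe set used above, and it cannot say which gene moved.

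Among the 16 mTORC1 pathway genes 0 passed in any siRNA comparison. SESN1, a sestrin gene, differed by 0.95 (A673) and 0.47 (SK-N-MC) with siITM2A, and by -0.87 and -1.06 for siDKK2 against siITM2A (-0.97 ± 0.17, adjusted p = 0.250). The kinase gene MTOR itself differed by -0.29 and -0.75 with siITM2A, and by 0.52 and 0.66 for siDKK2 against siITM2A. AKT1S1, which encodes an inhibitory subunit, differed by 0.44 and 0.48 for siDKK2 against siITM2A. The other sestrin genes had opposite signs in the lines in that comparison: SESN3, named after its values were seen, differed by 0.28 (A673) and -0.94 (SK-N-MC), and SESN2 by -0.32 (A673) and 0.33 (SK-N-MC).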
